A study of Mus musculus with 8 samples.

Results

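A set of 8 genes of the Kruppel-like factor (KLF) family, Klf3, Klf4, Klf6, Klf7, Klf9, Klf10, Klf12 and Klf13, was followed by their symbols through an RNA sequencing table of mouse regulatory T (Treg) cells that lists 57180 genes. The set was selected on the p of Klf6, which was among the smallest between the groups, at rank 41 of 14757 genes tested by edgeR's quasi-likelihood test (unadjusted p = 0.00108, adjusted p = 0.325). The comparison of groups therefore chose the set, and its values for these genes are given as a description without a test. Of the 17 Klf genes looked up in the table, the other 9 were used as their setting, and all 8 members passed the filter on low counts.

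The cells were sorted from different mice by flow cytometry and sequenced as 8 libraries, 3 titled chimera KO and 5 titled chimera WT. The labels name neither the deleted gene nor its allele, strain, age, treatment or the make-up of the chimeras, so the groups are called KO-labelled and WT-labelled, and the deletion could not be checked. They also do not tie libraries to single animals, and the spread described here is that between libraries. Totals ran from 4.31 to 8.48 M (mega counts) in KO-labelled and from 10.5 to 18.0 M in WT-labelled libraries. The series title names copper and the suppressive capacity of Treg cells as the subject.

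Markers of Treg cells were present in every library, but the libraries were not alike. The summed level of 5 Treg markers (Foxp3, Il2ra, Ikzf2, Ctla4 and Tnfrsf18) ran from 635 to 2562 normalised CPM in KO-labelled and from 2186 to 6011 in WT-labelled libraries, where normalised CPM means counts scaled to a common library size with TMM factors. None of these markers was at 0, but Foxp3, the defining factor, had only 18 counts in KO-labelled replicate 2 and 22 and 9 counts in WT-labelled replicates 4 and 5. The 7 markers of CD8 T and NK cells summed to 4.34 to 63.2 in KO-labelled and 79.0 to 4128 in WT-labelled libraries, and the 5 B cell markers to 78.2 to 194 in KO-labelled and 198 to 3108 in WT-labelled libraries, with both maxima in WT-labelled replicate 4. The 5 general T cell markers summed to 867 to 1411 in KO-labelled and 1685 to 15936 in WT-labelled libraries, highest in WT-labelled replicates 4 and 5. The 6 erythroid markers reached 9102 in WT-labelled replicate 5 and at most 22.2 elsewhere. Myeloid markers (5 genes) stayed at 5.07 to 41.1 in KO-labelled and 3.57 to 108 in WT-labelled libraries. Of the defining markers, Ncr1 of NK cells was at 0 in all 8 libraries. Protein-coding genes listed at 0 made up 35.0 to 36.4% in KO-labelled libraries, against 32.8 to 35.6% in WT-labelled replicates 1 to 3, 55.8% in replicate 4 and 46.2% in replicate 5. Where a result below is given without WT-labelled replicates 4 and 5, it is for these differences, whose part in the results was not tested otherwise.

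KLF proteins are transcription factors that carry zinc fingers at their carboxy-terminal end and bind GC-rich and CACCC-type elements in promoters and enhancers. Their amino-terminal parts differ and sort them into groups: KLF2, KLF4, KLF6 and KLF7 mostly activate transcription, KLF3 and KLF12 recruit the corepressor CtBP, and KLF9, KLF10 and KLF13 bind the corepressor Sin3. In T cells the family is best known through KLF2, which keeps resting cells quiescent and maintains genes of lymph node homing and egress.

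Klf6 lies on chromosome 13 at 5861482 to 5870394 on the plus strand of the GRCm38 (mm10) build (ENSMUSG00000000078), Klf4 on chromosome 4 at 55527143 to 55532466 on the minus strand (ENSMUSG00000003032), and Klf9 on chromosome 19 at 23141226 to 23168134 on the plus strand (ENSMUSG00000033863). Their promoters are shown because these genes had the largest values of the log2 change in size among the 8, Klf9 in the opposite direction to the other 2. Each window runs from 250 bases before to 50 after the RefSeq start on GRCm38.p6, at chr13:5861239-5861538 for Klf6, chr4:55532426-55532725 for Klf4 and chr19:23140976-23141275 for Klf9, and is written 5′ to 3′ in the direction of the gene. Capitals mark GC boxes (GGGCGG) and CACCC boxes (CACCC), the kinds of element that KLF and SP proteins bind, found on either strand.
Klf6: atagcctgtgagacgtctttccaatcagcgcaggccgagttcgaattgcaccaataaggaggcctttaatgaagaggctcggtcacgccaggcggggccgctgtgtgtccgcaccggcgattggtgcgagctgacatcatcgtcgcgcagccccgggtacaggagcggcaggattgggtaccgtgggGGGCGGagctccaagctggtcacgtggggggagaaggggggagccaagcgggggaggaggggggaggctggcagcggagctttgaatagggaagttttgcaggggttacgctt
Klf4: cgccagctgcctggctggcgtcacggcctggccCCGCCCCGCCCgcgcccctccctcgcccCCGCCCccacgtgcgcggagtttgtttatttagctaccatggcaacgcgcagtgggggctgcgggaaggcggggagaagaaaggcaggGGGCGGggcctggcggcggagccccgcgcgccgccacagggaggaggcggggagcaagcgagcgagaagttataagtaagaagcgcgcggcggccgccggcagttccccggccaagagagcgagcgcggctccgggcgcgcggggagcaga
Klf9: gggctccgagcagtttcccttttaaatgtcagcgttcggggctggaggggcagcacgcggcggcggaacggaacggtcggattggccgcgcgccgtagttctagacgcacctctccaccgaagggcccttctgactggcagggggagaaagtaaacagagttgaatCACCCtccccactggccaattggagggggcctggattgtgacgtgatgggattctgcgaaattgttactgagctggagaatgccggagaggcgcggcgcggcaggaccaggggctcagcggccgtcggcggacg

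The Klf6 window held 1 GC box and 0 CACCC boxes, that of Klf4 4 GC boxes and 0 CACCC boxes, and that of Klf9 0 GC boxes and 1 CACCC box. Among the 7 members with a RefSeq promoter entry, which leaves out Klf10, the GC box occurred in 5 windows and the CACCC box in 5, against 35.9% and 56.7% of 27025 promoters of the same length. The GC content was highest for Klf3, at 76.7%, with 6 GC boxes and 5 CACCC boxes that share 1 base, and lowest for Klf12, at 45.7%. The Klf12 window (chr14:100149747-100150046) lay within the span of the gene given below, not at its outer end of 100284679. These matches describe the letters of the windows only.

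Klf6 had the largest difference between groups for its spread among the members, which its selection by a small p favours. This zinc finger activator is expressed in many tissues, responds early to stimulation and is known for restraining the growth of tumour cells. It stood at 96.5, 52.2 and 35.8 normalised CPM in KO-labelled replicates 1 to 3, against 579, 846, 365, 1058 and 254 in WT-labelled replicates 1 to 5. Each KO-labelled library lay below each WT-labelled one, and the nearest pair was KO-labelled replicate 1 and WT-labelled replicate 5. The means were 61.5 ± 31.4 in KO-labelled and 620.3 ± 333 in WT-labelled libraries (SD, n = 3 and n = 5), a log2 change of −3.33 (SE 0.73) in the edgeR fit of KO minus WT. It was −3.27 (SE 0.54) when WT-labelled replicates 4 and 5 were left out. The median log2 change over all tested protein-coding genes was −0.87, so most coding genes were also lower on this scale. In bulk RNA, fewer cells of a type and less RNA per cell cannot be told apart. Relative to that median in the same fit, Klf6 was at −2.47, and between −3.08 and −2.30 in that fit and all 17 alternative settings. Its reads in counts were 1103, 349 and 200 in KO-labelled and 6982, 9749, 4341, 7531 and 1822 in WT-labelled libraries, at least 200 in each library. The part of depth in this difference was not tested.

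**Figure D1:**
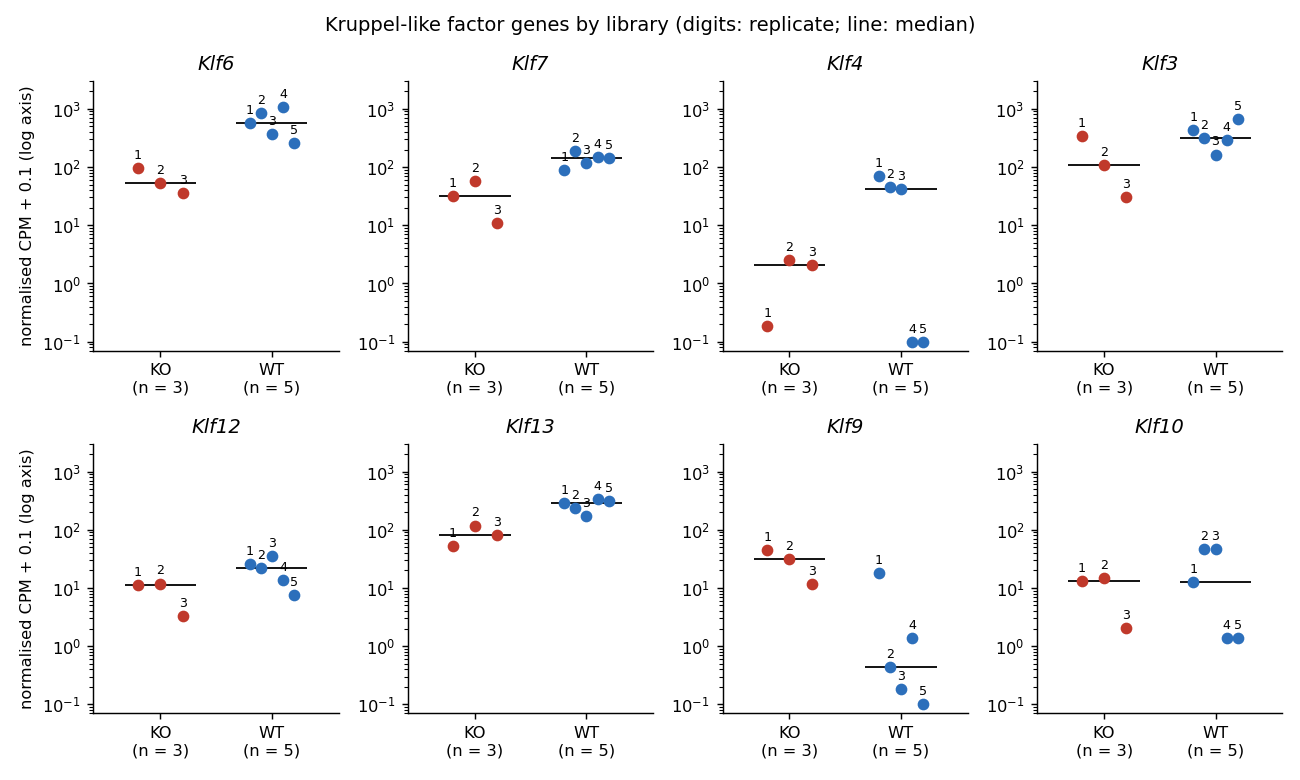
Normalised CPM plus 0.1 on a log axis for the 8 Klf genes, with 1 point per library, KO-labelled on the left and WT-labelled on the right, digits for the replicate and a line at the median. Klf6, Klf7 and Klf13 have every KO-labelled library below every WT-labelled one, Klf4 is near 0 in WT-labelled replicates 4 and 5 as in the KO-labelled libraries, and Klf9 is high in the KO-labelled libraries and in WT-labelled replicate 1.

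Klf7 (chromosome 1, 64029447 to 64122282, minus strand), the closest relative of Klf6 in this set and best known from neurons and fat cells, had the same order at a lower level. It stood at 32.2, 56.6 and 10.7 normalised CPM in KO-labelled libraries and at 89.5, 186, 117, 151 and 142 in WT-labelled libraries. The groups did not overlap on this scale, but they did in levels per kilobase of gene length, given below. The means were 33.2 ± 22.9 in KO-labelled and 137 ± 36.3 in WT-labelled libraries. The log2 change was −2.05 (SE 0.79), or −1.18 relative to the protein-coding median (−1.89 to −0.86 over the settings), and −1.94 without WT-labelled replicates 4 and 5. Klf7 shares 3196 exonic bases with Gm26649, a noncoding gene on the other strand in GENCODE M21, and without strand the reads of that stretch cannot be assigned to one of them.

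Klf4 split the WT-labelled libraries. KLF4 is known for its part in pluripotency and for holding back the proliferation of T cells. It had 1, 16 and 11 counts in KO-labelled libraries and 840, 522 and 506 counts in WT-labelled replicates 1 to 3, but 0 counts in WT-labelled replicates 4 and 5. The limit that a count of 0 sets, 3 counts, equals 0.421 and 0.419 normalised CPM in those 2 libraries and covers counting error only. The groups thus overlap: WT-labelled replicates 4 and 5 lie at the level of KO-labelled replicate 1 or below it. The log2 change was −4.41 (SE 2.53), and −5.08 (SE 1.31) without WT-labelled replicates 4 and 5. There 3 KO-labelled libraries stand against 3 that are all higher. That split comes from leaving out the 2 libraries that overlap, and the share of all genes split so was not computed.

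Among the genes for CtBP-recruiting repressors, Klf3 (chromosome 5, 64803388 to 64832901, plus strand) spread widely among the KO-labelled libraries. KLF3 represses transcription in blood cells and is needed for normal B cell development in mice. Its level was 345, 108 and 30.4 normalised CPM in KO-labelled libraries and 429, 316, 164, 288 and 659 in WT-labelled libraries. KO-labelled replicate 1 lay within the WT-labelled range and the other 2 KO-labelled libraries below it. The log2 change of −1.20 (SE 0.82) became −2.48 without KO-labelled replicate 1, −0.72 without KO-labelled replicate 3 and −0.78 without WT-labelled replicate 5. With library totals alone as scaling it was −0.50. The gene shares 404 exonic bases with the antisense transcript Gm20033, which had at most 136 counts in a library.

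Klf12 (chromosome 14, 99870632 to 100284679, minus strand), a related repressor first described for its action on the gene of transcription factor AP-2 alpha, stood at 11.2, 11.8 and 3.22 normalised CPM in KO-labelled libraries and at 25.2, 22.1, 34.6, 13.5 and 7.39 in WT-labelled libraries. The groups overlapped through WT-labelled replicate 5. Its log2 change was −1.23 (SE 1.05), −1.62 without WT-labelled replicates 4 and 5, −0.71 with library totals alone and −0.58 without WT-labelled replicates 2 and 3. Relative to the protein-coding median of the same fit, Klf3 was at −0.34, and between −1.36 and 0.05 over that fit and the 17 alternatives, with −1.26 without KO-labelled replicate 1 and 0.05 without KO-labelled replicate 3. Klf12 was at −0.37 on that scale, and between −1.49 and 0.08, with −1.14 without WT-labelled replicates 4 and 5 and 0.08 without WT-labelled replicates 2 and 3.

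The 3 members for Sin3-binding factors did not share a direction. Klf13 (chromosome 7, 63886351 to 63938915, minus strand), which encodes an activator of the chemokine gene Ccl5 in T cells, had 52.1, 118 and 82.3 normalised CPM in KO-labelled libraries, against 293, 235, 173, 334 and 317 in WT-labelled libraries. The groups did not overlap on this scale, but they did in levels per kilobase of gene length, given below. The means were 84.2 ± 33.0 in KO-labelled and 270.4 ± 65.9 in WT-labelled libraries. The log2 change was −1.68 (SE 0.60), or −1.42 without WT-labelled replicates 4 and 5. With library totals alone it was −0.94, and relative to the protein-coding median it was −0.82. That relative value ran from −1.27 to −0.28 over the same settings, and was −0.28 without KO-labelled replicate 1. Klf13 had the smallest pooled SD within groups of the 8 members, 0.47 on the log2 scale, while Klf4 had the largest, 3.67.

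Klf9 was the only one of the 8 with a positive log2 change. Its product is induced by glucocorticoids and thyroid hormone in many tissues. It had 519, 208 and 64 counts in KO-labelled libraries, against 215 counts in WT-labelled replicate 1 and 4, 1, 9 and 0 counts in WT-labelled replicates 2 to 5. In normalised CPM these were 45.4, 31.1 and 11.5 in KO-labelled and 17.8, 0.347, 0.0841, 1.26 and 0 in WT-labelled libraries. All KO-labelled libraries lay above 4 of the 5 WT-labelled ones, and KO-labelled replicate 3 lay below WT-labelled replicate 1. The log2 change was 2.90 (SE 1.81), and 6.10 (SE 1.71) without WT-labelled replicate 1, the largest shift of any member on leaving out a library.

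Klf10 (chromosome 15, 38291463 to 38300706, minus strand), also called TIEG1, is a TGF-beta-inducible gene whose product acts with the ubiquitin ligase Itch on Foxp3 expression in mouse T cells. It stood at 13.0, 14.96 and 1.97 normalised CPM in KO-labelled libraries and at 12.8, 46.4, 46.7, 1.26 and 1.26 in WT-labelled libraries. High values were confined to WT-labelled replicates 2 and 3, the libraries whose names start with FY, while the names of all others start with CY. The log2 change of −1.12 (SE 1.48) turned to 1.20 (SE 1.50) without those 2 libraries and was −1.80 (SE 1.06) without WT-labelled replicates 4 and 5. Klf4 and Klf10 thus shared low values in WT-labelled replicates 4 and 5, and only Klf4 was high in WT-labelled replicate 1.

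**Figure D2:**
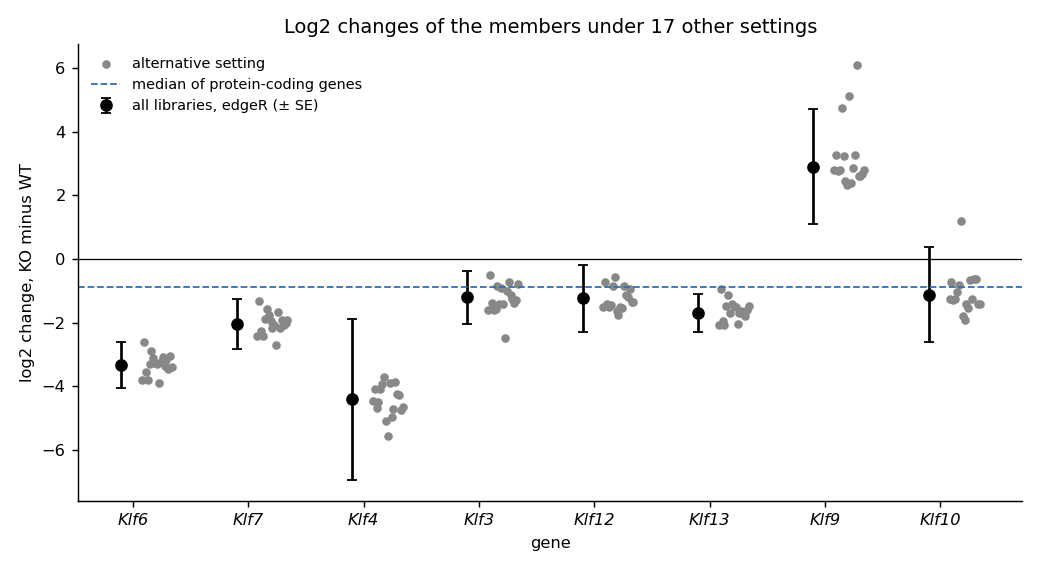
Log2 change of KO minus WT for each of the 8 Klf genes, as the edgeR value with its SE (black) and under 17 alternative settings (grey), with the median of protein-coding genes as a dashed line. Klf4, Klf6, Klf7 and Klf13 stay below the dashed line, Klf9 stays above 0, and Klf10 lies on both sides of 0.

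Counted together, 7 of the 8 members had negative log2 changes and 1 a positive one, with a median of −1.46. Over all 14757 genes tested 43.3% were positive with a median of −0.42, and over the 10754 protein-coding ones 33.5% were positive with a median of −0.87. By edgeR 0 of the 8 passed an adjusted p under 0.05, as did 0.0% of all genes in each direction, with 3 lower at an unadjusted p under 0.05, against 6.43% of genes, and 0 higher, against 7.98%. DESeq2 gave an adjusted p under 0.05 in the lower direction for 3, Klf6, Klf7 and Klf13, against 10.0% of genes, and in the higher direction for 0, against 6.4%. In normalised CPM the groups did not overlap, with KO lower, for the same 3 genes, against 4.48% of all genes. With KO higher this held for 0 members, against 13.2%. In levels per kilobase of gene length, given below, only Klf6 of the 3, the gene the set was selected on, stayed apart. The share of all genes apart on that scale was not computed. Among the 10754 protein-coding genes, 855 were lower and 578 higher at an unadjusted p under 0.05 in edgeR. DESeq2 called 1336 of them lower and 451 higher. The groups did not overlap for 584 with KO lower and for 903 with KO higher. As the set was drawn from this comparison, nothing is read from these counts.

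Levels per length, that is counts per kilobase of the deposited gene length scaled to the same sum over all genes in each library, allow the members to be ordered within a library. In the KO-labelled libraries the order by median was Klf3 at 48.6, Klf6 at 29.0, Klf13 at 26.9, Klf9 at 16.3, Klf10 at 10.2, Klf7 at 10.0, Klf12 at 4.52 and Klf4 at 1.36. In the WT-labelled libraries it was Klf6 at 144, Klf3 at 120.1, Klf13 at 47.8, Klf4 at 23.4, Klf7 at 22.9, Klf10 at 8.23, Klf12 at 7.45 and Klf9 at 0.129. Neighbours in both orders had ranges over libraries that overlapped. Klf6 and Klf7 did not overlap within either group, at 17.7 to 54.4 for Klf6 and 2.93 to 17.3 for Klf7 in KO-labelled libraries, and at 58.0 to 397 for Klf6 and 8.99 to 48.1 for Klf7 in WT-labelled libraries. Klf6 exceeded Klf7 in all 8 libraries, by ratios of 1.67 to 6.04 in KO-labelled and 3.24 to 12.7 in WT-labelled libraries. Between the groups, Klf6, on which the set was selected, stayed apart on this scale, while Klf7 overlapped. Klf13 overlapped too, at 19.4 to 43.3 in KO-labelled and 23.8 to 89.8 in WT-labelled libraries. This scale does not use the TMM factors, which were 1.32 to 1.49 in KO-labelled libraries. In WT-labelled libraries they were 1.08 to 1.15 in replicates 1 to 3, 0.40 in replicate 4 and 0.69 in replicate 5.

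Klf2, which is not a member, had the highest level per length of the family in all 3 KO-labelled libraries and in WT-labelled replicates 1, 3 and 4, with Klf6 highest in WT-labelled replicate 2 and Klf3 in replicate 5. Its normalised CPM was 136, 171 and 91.6 in KO-labelled and 298, 249.96, 324, 603 and 219 in WT-labelled libraries, with a log2 change of −1.35 (SE 0.59, edgeR adjusted p = 0.339, DESeq2 adjusted p = 0.0312). The ratio of Klf6 to Klf2 within a library, which scaling does not change, was 0.309, 0.134 and 0.171 in KO-labelled libraries. In WT-labelled libraries it was 0.848, 1.48, 0.492, 0.768 and 0.508, without overlap. As the set was selected on Klf6 in this comparison, nothing is read from that. The ratio of Klf6 to Klf13 overlapped, at 2.80 in KO-labelled replicate 1 and 1.21 in WT-labelled replicate 5, as did that to Klf7.

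The share of the summed level of all 17 Klf genes that fell to Klf6 was 11.9, 7.41 and 9.97% in KO-labelled libraries, against 28.9, 40.7, 23.2, 35.4 and 16.0% in WT-labelled libraries. Klf2 held 38.4 to 58.4% in KO-labelled and 27.5 to 47.2% in WT-labelled libraries, which overlap. Klf9 held 3.005 to 5.26% in KO-labelled libraries and at most 0.838% in WT-labelled ones, so the share was apart also for WT-labelled replicate 1. The share depends on the summed level too, which was 178 in KO-labelled replicate 3 and 930 in WT-labelled replicate 1. The level per length of Klf9 itself overlapped, at 5.34 and 7.79 in these 2 libraries. Klf13 held 4.24 to 15.2% in KO-labelled and 7.27 to 13.2% in WT-labelled libraries, a share that overlapped although its normalised CPM did not. Among the 21745 protein-coding genes of the table, the level per length of Klf6 exceeded that of 89.7, 87.7 and 84.8% of genes in KO-labelled libraries and of 97.7, 98.4, 96.0, 95.3 and 90.8% in WT-labelled libraries.

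**Figure D3:**
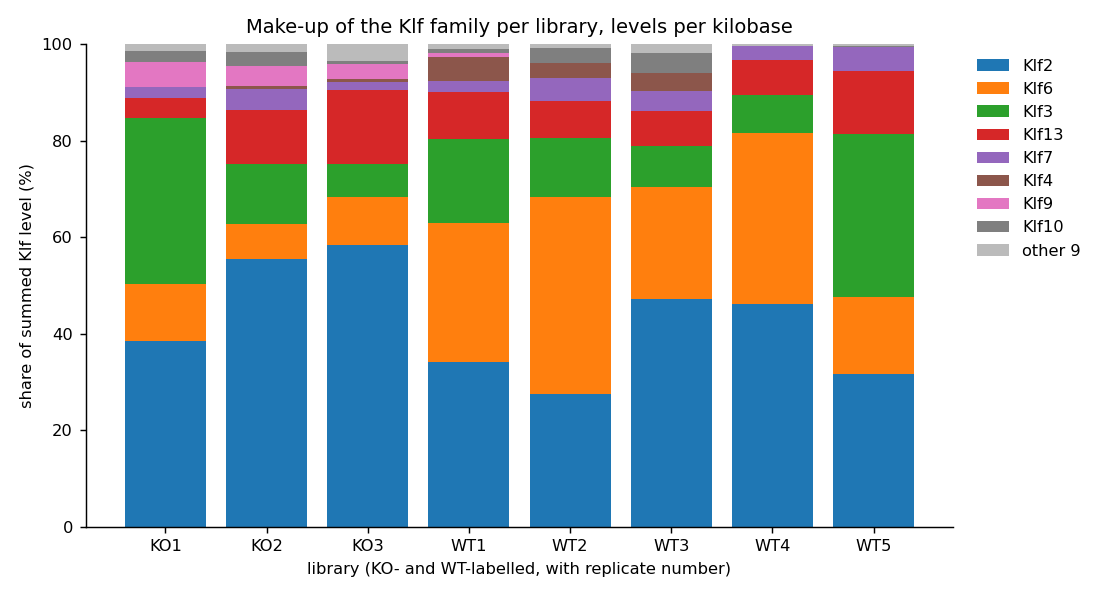
Share in percent of the summed level per kilobase of the 17 Klf genes in each library, KO-labelled on the left and WT-labelled on the right. Klf6 takes 7.41 to 11.9% in the KO-labelled and 16.0 to 40.7% in the WT-labelled libraries, and Klf9 is visible mainly in the KO-labelled ones.

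Of the other 9 Klf genes only Klf2 and Klf11 passed the count filter. Klf11, a close relative of Klf10, had 1, 12 and 33 counts in KO-labelled and 5, 12, 22, 1 and 0 counts in WT-labelled libraries (log2 change 1.86, edgeR adjusted p = 0.478). The remaining 7 had at most 21 counts in any library, and Klf1, the erythroid member, had at most 1, also in WT-labelled replicate 5 with its haemoglobin counts.

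Group means below are normalised CPM ± SD over the 3 KO-labelled (KO) and 5 WT-labelled (WT) libraries. The counts for each list below stand beside a background in which 7156 of 10754 protein-coding genes were negative, with a median of −0.87. At an unadjusted p under 0.05 in edgeR, 855 of these coding genes were lower and 578 higher. The groups did not overlap, with KO lower, for 584 of them. SP proteins share the zinc finger type and the GC box with KLF proteins. Of 9 Sp genes 4 were tested, all with negative log2 changes, 0 called by edgeR or DESeq2, which gave no adjusted p for Sp4, and 0 at an unadjusted p under 0.05 in edgeR. Sp1 had 94.98 ± 3.56 (KO) and 137 ± 107 (WT), Sp3 94.1 ± 65.4 (KO) and 171 ± 98.7 (WT), and Sp4 22.8 ± 30.1 (KO) and 126 ± 189 (WT), raised by WT-labelled replicate 5 at 462.

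For the genes around the family, edgeR called 0 members of any list, and DESeq2 made calls in the lower direction only, in which it called 10.0% of all genes. DESeq2 gave no adjusted p for Slfn2, Hdac3, Tsc22d3, Fkbp5, Egr1, Egr2 and Ier5 of these lists, which its counts leave out. Among 6 trafficking and receptor genes linked to KLF2, 5 had negative log2 changes (median −1.28), 1 had an unadjusted p under 0.05 in edgeR and DESeq2 called 3. S1pr1, the receptor for egress from lymph nodes, stood at 145 ± 75.3 (KO) and 328 ± 101 (WT), and Il7r, the interleukin-7 receptor, at 212 ± 197 (KO) and 757 ± 361 (WT). Of 12 T cell quiescence regulators 11 were negative (median −1.33), 3 had an unadjusted p under 0.05 and DESeq2 called 4. The antiproliferative gene Btg1 had 757 ± 31.7 (KO) and 2162 ± 556 (WT) without overlap (log2 change −1.51, edgeR adjusted p = 0.325, DESeq2 adjusted p = 0.000272), while Foxp1 had 282 ± 92.0 (KO) and 597 ± 162 (WT) and Foxo1, an inducer of Klf2 in T cells, 172 ± 120 (KO) and 454 ± 324 (WT).

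Cofactors and upstream regulators varied widely between libraries. Of 10 corepressor and coactivator genes 8 were negative (median −0.95), 0 had an unadjusted p under 0.05 and DESeq2 called 0. Hdac1 had 62.8 ± 46.0 (KO) and 187 ± 169 (WT), Crebbp 79.9 ± 63.6 (KO) and 175 ± 107 (WT), and Kat2b 118 ± 60.4 (KO) and 151 ± 105 (WT). Of 7 tested upstream and ubiquitin regulators 6 were negative (median −2.13), 1 had an unadjusted p under 0.05 and DESeq2 called 2. Itch had 96.5 ± 27.6 (KO) and 126 ± 90.4 (WT), the ubiquitin ligase gene Wwp1 19.5 ± 33.3 (KO) and 85.7 ± 75.5 (WT), and Mef2a, whose family acts on Klf2 in other cells, 258 ± 35.1 (KO) and 148 ± 67.8 (WT).

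Signals known to induce single members were also set beside them. Of 9 TGF-beta and SMAD genes 8 were negative (median −0.73), 0 had an unadjusted p under 0.05 and DESeq2 called 1, Ski, a repressor of SMAD proteins, at 75.7 ± 35.4 (KO) and 208 ± 78.2 (WT). The receptor genes Tgfbr1 and Tgfbr2 stood at 90.9 ± 71.0 (KO) and 207 ± 175 (WT), and at 107 ± 19.4 (KO) and 137 ± 87.1 (WT). All 6 tested glucocorticoid response genes were negative (median −2.07). Of these, 2 had an unadjusted p under 0.05 in edgeR, and DESeq2 called 2 of the 4 with a value. Klf9 had a positive value, and a link between it and these genes was not tested. The receptor gene Nr3c1 had 76.1 ± 55.8 (KO) and 135 ± 146 (WT), Tsc22d3 95.2 ± 36.1 (KO) and 548 ± 763 (WT) with 1894 in WT-labelled replicate 4, and the phosphatase gene Dusp1 125 ± 63.9 (KO) and 383 ± 110.3 (WT) without overlap. Of 13 tested immediate early genes 12 were negative (median −1.43), 3 had an unadjusted p under 0.05 and DESeq2 called 3 of the 10 with a value. Fos had 72.8 ± 10.8 (KO) and 325 ± 264 (WT), Junb 72.2 ± 22.7 (KO) and 314 ± 446 (WT), and Ier5 74.1 ± 22.0 (KO) and 326 ± 467 (WT), the last pair highest in WT-labelled replicate 4.

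**Figure D4:**
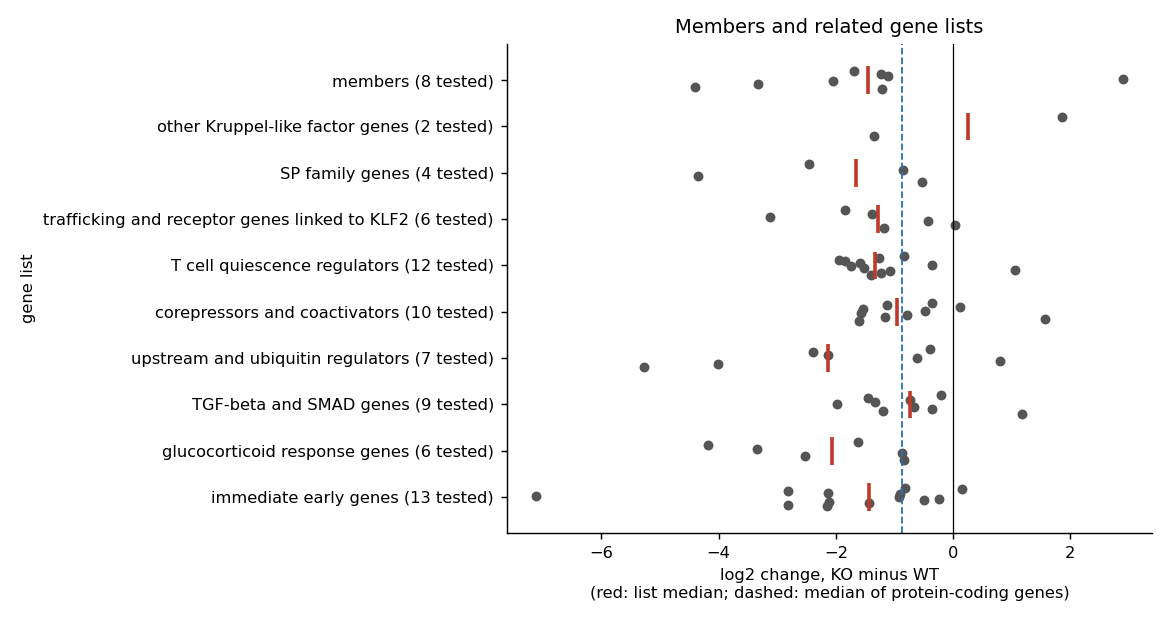
Log2 change of KO minus WT for each tested gene (grey) of the 8 members and of 9 related lists, with the list median in red and the median of protein-coding genes dashed. List medians lie between −2.13 and 0.25, the latter from the 2 tested genes of the other Klf list. Klf9 and Klf11 are to the right of 0, as are some genes of other lists.

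Among the 5 genes with the pattern nearest to that of Klf6 were Gmfb, Srpr (a subunit of the receptor for signal recognition particles), Bicral (a chromatin remodelling subunit) and Pts (an enzyme of tetrahydrobiopterin synthesis), out of 5606 coding genes whose mean log2 CPM was 3 or more. Likeness was the root mean square difference of log2 normalised CPM over the 8 libraries after centring each gene on its own mean, and it was 0.43 for Gmfb and 0.55 for Pts. Gmfb stood at 59.5, 26.0 and 35.4 normalised CPM in KO-labelled libraries and at 259, 318, 309.5, 689 and 148 in WT-labelled libraries. Pts had 38.8, 13.2 and 6.44 in KO-labelled and 137, 194, 234, 389 and 103 in WT-labelled libraries. Like Klf6, these 4 genes were highest in WT-labelled replicate 4 in normalised CPM, which follows from their choice on likeness over these libraries. Per kilobase of gene length, Klf6 was 114 in that library, against 269, 397 and 144 in WT-labelled replicates 1 to 3. No other Klf gene was among the nearest 5, but only 10 of the 17 Klf genes were tested. Those with a mean log2 CPM under 3 could not enter either.

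**Figure D5:**
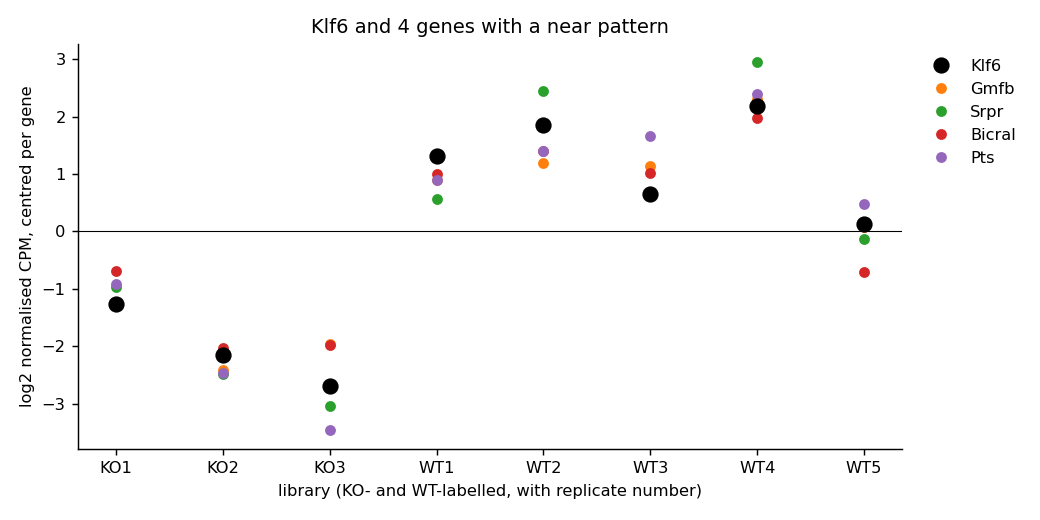
Log2 normalised CPM, centred on each gene's mean over the 8 libraries, for Klf6 (black), Gmfb, Srpr, Bicral and Pts, KO-labelled libraries on the left and WT-labelled on the right. All 5 genes are below their mean in the 3 KO-labelled libraries and at their highest in WT-labelled replicate 4.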

How the data were processed

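RNA was sequenced from sorted mouse Treg cells in 3 KO-labelled and 5 WT-labelled libraries, made with a SMART-Seq low-input kit per the labels' protocols, a kit that does not mark strand. The authors deposited expected counts per gene. Per the submitters' processing notes the tools included RSEM, HISAT2, StringTie, fastp and DESeq2, with the build mm10, and neither versions nor roles are given. The gene length column was used as deposited by the authors, and their group mean columns were not used. GENCODE M21 held 51884 of the 57180 gene identifiers, and 0 value columns belonged to other samples.

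Values were rounded to integers and tested in edgeR 4.0.16 under R 4.3.3 (quasi-likelihood test of the 2 groups, no covariates, TMM scaling, filterByExpr at a minimum count of 10), with Benjamini-Hochberg adjustment over all 14757 genes tested. Each SE was derived from the log2 change and the F statistic. Alternatives were DESeq2 1.42.0, limma 3.58.1 voom with quality weights, other scalings, no filter, coding genes only, a replicate block and left-out libraries. The procedure was tested on simulated data. No pair of libraries within a group agreed within sampling noise (chi-square per degree of freedom at least 66.8). Depth, 4.31 to 18.0 M counts per library, limits genes with few counts.

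The members and gene lists were chosen with earlier results of these data known. Named are the 8 members, the 3 most abundant tested genes of each list and the 5 genes nearest to Klf6, apart from a few items that are not reported here. Promoters are from RefSeq on GRCm38.p6.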

Additional observations from a re-analysis of the deposited data

Results flagged for a closer look

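Among 56 named genes examined, 16 had 1 of the 5 WT-labelled libraries far from the other 4 in normalised CPM. Chance gives such a gap in about 1 in 20 groups of normally distributed values, a shape that was not checked here. Of the 8 members only Klf9 was among them, with 17.8 in WT-labelled replicate 1 against at most 1.26 in the other 4. WT-labelled replicate 4 was the distant library for 12 genes: Klf2 (603), Hdac1 (482), Tsc22d3 (1894), Junb (1102), Ier5 (1160.3), the T cell genes Cd3d (4573) and Cd8b1 (236), the cytotoxic cell genes Nkg7 (2357) and Ccl5 (1399), and the B cell genes Cd79a (359), Ms4a1 (658) and Ighm (1897). The TMM factor of WT-labelled replicate 4 was the smallest, 0.40, which raises its normalised CPM. Per kilobase of gene length, without that factor, Klf2 was 149 there, below 317, 269 and 293 in WT-labelled replicates 1 to 3. WT-labelled replicate 5 was the distant library for Sp4 (462) and the haemoglobin genes Hba-a1 (3569) and Hba-a2 (2216).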

How the results depend on the processing

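The number of genes called over all genes was 0 by edgeR (2126 at an unadjusted p under 0.05), and 0 with any 1 library left out, without the FY libraries, without WT-labelled replicates 4 and 5, with DESeq2 size factors and on coding genes. It was 1 with library totals alone, 1 without a filter, 22 by limma-voom (18 higher, 4 lower) and 2421 by DESeq2 (944 higher, 1477 lower). The cause of these differences was not tested. The median log2 change of all genes was −0.42 with TMM, −0.72 with DESeq2 size factors and 0.21 with library totals, so the sizes of all changes shift with the scaling. Klf6 ranged from −3.88 to −3.05 with 1 library left out and from −3.80 to −2.60 otherwise. The 8 members kept their sign in all 17 alternatives, except Klf10 without the FY libraries (1.20). Correlations of deviations were 0.0175 to 0.0466 for same-numbered libraries and −0.0650 to 0.0215 for pairs with unlike numbers. The WT-labelled deviations were from the mean of all 5 libraries, which includes replicates 4 and 5, so these values cannot settle whether libraries were paired. With the replicate number as a block, the 6 libraries numbered 1 to 3 gave 0 calls and −3.29 for Klf6. Klf4, Klf9 and Klf10 rest on few counts in several libraries.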
